A study of Mus musculus with 3 samples.

Results

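The 30 genes described here encode enzymes and regulators of cholesterol and fatty acid synthesis, and were chosen by name as pathway members. The rule uses no measured value, but earlier results of these data were known when the list was drawn up. They form a sterol arm of 17 genes and a fatty acid arm of 13 genes, and all 30 were found among the 30406 genes that the gene tables of the 3 libraries share by Ensembl ID. The libraries were 10x Genomics 3' single-cell RNA libraries of C57/B6 mouse lung at embryonic stage E14.5. The lungs of the litters were pooled and broken up with enzymes, and the cells carried an Epcam antibody, for an epithelial surface protein, and an Icam1 antibody, for an adhesion protein that leukocytes bind. In 2 libraries the sorted cells are labelled Epcam+ Icam+ (replicates 1 and 2), and in 1 library Epcam+. Strain and age are the same throughout, and the labels name no genetic change or treatment. Nothing in the labels tells whether each library had its own pool, so a p-value here reflects library-to-library spread that could be technical alone.

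Cholesterol is built from acetyl-CoA through mevalonate, isoprenoids, squalene and lanosterol, and fatty acids are built from acetyl-CoA by carboxylation, chain growth, elongation and desaturation. Both arms are switched on by the SREBP transcription factors, which are held in the endoplasmic reticulum by Insig proteins when sterols are plentiful; Srebf2 is best known for sterol genes and Srebf1 for fatty acid genes. In the lung the pathways are known for feeding the lipid of surfactant, which type 2 alveolar cells later secrete, and for the membranes of dividing cells.

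Promoter sequence was read for the members because the sterol genes are textbook SREBP targets. Most of them were also lower in macrophages than in epithelium, and lower in Epcam+ Icam+ than in Epcam+ epithelium. Between epithelial classes few were called. Any part of SREBP in these differences was not tested. RefSeq promoter windows (build GRCm38.p6, 250 bases before to 50 after the start, both strands searched) were matched for 14 of the 17 sterol genes and 10 of the 13 fatty acid genes. The CCAAT box, written CCAAT or ATTGG, was in 13 of the 14 sterol windows and 7 of the 10 fatty acid windows, against 41.1% of all 27025 genes with a window (37.4% of all 32851 windows). The GC box GGGCGG was in 13 of 14 and 6 of 10, against 38.2% of genes (35.7% of windows). The sterol regulatory element searched as TCACNCCAC was found in 1 of 14 sterol windows and 0 of 10 fatty acid windows, against 1.44% of genes (1.24% of windows). A match describes letters in a window and not a bound site, and other spellings of the element were not searched. Of the sterol windows 4 are printed, cut back to the bases upstream of the annotated gene: Nsdhl and Acat2, which were lower in the Epcam+ Icam+ libraries in each of 4 cell classes tested, and Hmgcs1 and Insig1, which were called between sorts in 1 and 0 of those classes. Capitals mark matches to CCAAT on either strand and, in Hmgcs1, the sterol regulatory element TCACCCCAC at -137 to -129 from the start.
Nsdhl, chrX:72918271-72918520, + strand: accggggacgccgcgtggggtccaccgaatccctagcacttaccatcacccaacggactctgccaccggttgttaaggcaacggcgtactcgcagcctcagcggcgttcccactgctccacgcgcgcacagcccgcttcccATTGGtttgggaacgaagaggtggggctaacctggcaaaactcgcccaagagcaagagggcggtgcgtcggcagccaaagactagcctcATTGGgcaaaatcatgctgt
Acat2, chr17:12960748-12960975, - strand: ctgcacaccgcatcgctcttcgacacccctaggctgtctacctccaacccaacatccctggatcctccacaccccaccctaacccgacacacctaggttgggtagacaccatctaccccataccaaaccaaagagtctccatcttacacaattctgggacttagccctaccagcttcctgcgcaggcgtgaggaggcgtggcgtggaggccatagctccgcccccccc
Hmgcs1, chr13:119690101-119690350, + strand: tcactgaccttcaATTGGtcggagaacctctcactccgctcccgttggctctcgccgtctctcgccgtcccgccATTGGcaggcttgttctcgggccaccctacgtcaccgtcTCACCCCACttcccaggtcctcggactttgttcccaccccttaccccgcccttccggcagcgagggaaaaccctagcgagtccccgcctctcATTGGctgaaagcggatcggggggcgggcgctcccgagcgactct
Insig1, chr5:28071162-28071362, + strand: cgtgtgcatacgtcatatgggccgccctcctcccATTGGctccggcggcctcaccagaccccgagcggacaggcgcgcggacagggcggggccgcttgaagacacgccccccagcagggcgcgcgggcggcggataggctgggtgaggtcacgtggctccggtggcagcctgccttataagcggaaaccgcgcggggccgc
Within the bases shown, 3 CCAAT matches stood in the Hmgcs1 promoter, 2 in that of Nsdhl, 1 in that of Insig1 and 0 in that of Acat2.

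The libraries held 74170599, 67843828 and 84460347 unique molecules (UMIs). Values given as a series of 3 are always in the order Epcam+ Icam+ replicate 1, Epcam+ Icam+ replicate 2, Epcam+. After filters on depth and mitochondrial share, 3395, 3161 and 2990 barcodes were kept with a median of 19847, 19708 and 26881 UMIs, and the libraries shared at most 2 barcodes. Cells were placed in classes by marker genes that are not among the 30: tip (113, 130 and 850 cells), the Sox9-positive growing ends; airway (164, 166 and 217), led by Sox2 and Scgb3a2; surfactant-high (237, 228 and 154); Hopx/Clic5-positive (433, 345 and 7), which carry early alveolar type 1 markers; and macrophages (565, 531 and 65). The 7 Hopx/Clic5-positive cells of the Epcam+ library were under the minimum of 20, so that class was tested in 2 libraries. Tip and surfactant-high cells are neighbouring ranges of marker scores: the summed surfactant markers stood at 9477, 8617 and 2771 UMIs per 1000000 UMIs of the summed cells (CPM) in tip and 15849, 15284 and 4493 CPM in surfactant-high cells. Airway markers summed to 2927, 3985 and 1120 CPM in airway against 94.9, 84.3 and 86.3 CPM in tip cells, and macrophage markers to 8889, 8802 and 8578 CPM in macrophages against at most 19.7 CPM in any epithelial class. Epithelial cells that fitted no class or more than 1 stayed unassigned (1281, 1115 and 1296 cells) and entered only the sums over all epithelium.

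Every one of the 30 genes had UMIs in tip, airway, surfactant-high and macrophage cells of each library. In epithelium the sterol arm summed to 655, 687 and 923 CPM in tip, 668, 616 and 868 CPM in airway and 607, 564 and 857 CPM in surfactant-high cells. Hopx/Clic5-positive cells had 641 and 609 CPM in the Epcam+ Icam+ libraries, within the range of the other epithelial classes there. In macrophages the sum was 247, 248 and 348 CPM, below every epithelial class of the same library. The fatty acid arm summed to 451, 455 and 329.9 CPM in tip, 419.7, 380.4 and 348 CPM in airway and 409, 414 and 348 CPM in surfactant-high cells, and to 226, 225 and 235 CPM in macrophages. The sterol sum was thus higher in the Epcam+ library than in both Epcam+ Icam+ libraries in each class, whereas the fatty acid sum was lower there in the 3 epithelial classes and not in macrophages.

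**Figure D1:**
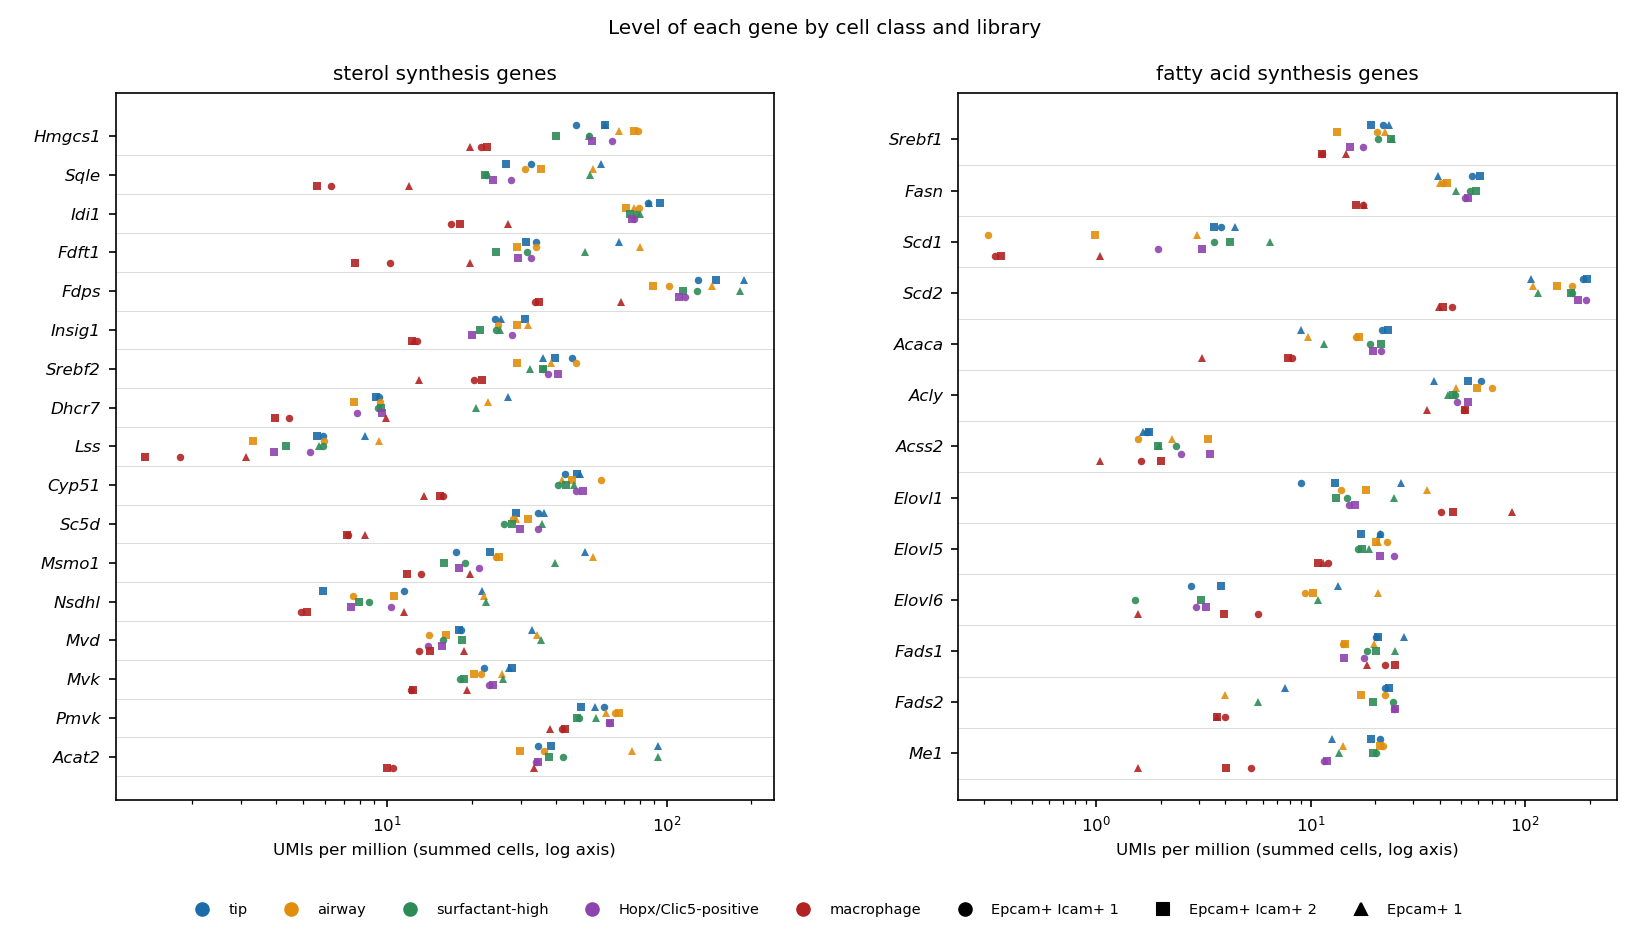
Level of each of the 30 genes as UMIs per 1000000 UMIs of the summed cells (CPM, log axis) in 5 cell classes, with 1 point per class and library and only points with at least 20 cells drawn. Macrophage points lie to the left of the epithelial points for most genes and to the right for Elovl1, and the Epcam+ library (triangles) lies apart from the Epcam+ Icam+ libraries for genes such as Dhcr7, Nsdhl and Acat2.

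Macrophages held less transcript of nearly the whole sterol arm than epithelium did. Of the 17 sterol genes 15 were lower and 0 higher than the mean of the epithelial classes, where 37.5% of the 12803 genes tested were called lower and 39.2% higher (76.7% in all). The median log2 difference of the arm was -1.07, against 0.00146 over all genes. With library totals in place of TMM scaling the median of all genes between macrophages and epithelium moves by -0.34, the calls over all genes turn from 5022 higher and 4800 lower to 3540 and 6815, and all 17 sterol genes were called lower. In cells low in cell cycle UMIs 14 were lower and 0 higher. Those cells were at or under the median cell cycle UMIs, among 5000, of their own library and lineage. The cuts were thus 4, 4 and 9 in macrophages and 9, 9 and 17 in epithelium, which does not match the cell cycle between macrophages and epithelium. In macrophages 9 of 14 S phase genes and 11 of 14 G2/M genes were lower. Epithelial markers were also found in macrophages: all 6 had UMIs, at 609, 584 and 791 CPM in sum against 4206, 4145 and 3008 CPM in epithelium. Whether carried-over epithelial RNA adds to the macrophage values was not tested, but each gene can be set beside it, as done below.

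Among the enzymes that lead to the isoprenoids, Hmgcs1, which makes HMG-CoA, stood at 21.6, 22.7 and 19.8 CPM in macrophages and 60.6, 55.0 and 62.9 CPM in epithelium, a log2 difference of -1.07 (SE 0.113, adjusted p = 1.01e-07). Acat2, which makes the acetoacetyl-CoA that enters the pathway, differed by -1.37 (SE 0.0935, adjusted p = 2.32e-10). Idi1, which isomerises isopentenyl diphosphate, stood at 16.9, 18.2 and 27.1 CPM against 82.2, 79.3 and 83.8 CPM, a difference of -1.73 (SE 0.0848, adjusted p = 2.08e-12). Fdps, which makes farnesyl diphosphate, differed by -1.32 (SE 0.0765, adjusted p = 2.16e-11). The mevalonate kinase Mvk was lower by less, at -0.42 (SE 0.0955, adjusted p = 0.000597). The other two enzymes of that stretch were the sterol genes that did not pass: Mvd, the mevalonate diphosphate decarboxylase, at -0.0278 (SE 0.111, adjusted p = 0.828), and the phosphomevalonate kinase Pmvk at -0.11 (SE 0.0836, adjusted p = 0.24). Their 95% intervals ran from -0.29 to 0.23 and from -0.31 to 0.0883, and with library totals both were called lower, at -0.36 and -0.45.

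The enzymes of squalene and of the ring were lower throughout. Sqle, the squalene epoxidase, had the largest difference of the arm: 6.27, 5.61 and 11.99 CPM in macrophages against 28.5, 25.8 and 57.1 CPM in epithelium, or -1.85 (SE 0.123, adjusted p = 1.78e-10). Macrophages were below epithelium in each library, and the groups did not overlap. Fdft1, which makes squalene, differed by -1.43 (SE 0.0992, adjusted p = 3.04e-10), and Lss, which closes the ring to lanosterol, by -1.26 (SE 0.2, adjusted p = 1.61e-05) on few UMIs (27, 19 and 6 in macrophages). Of the genes that turn lanosterol into cholesterol, Sc5d, the sterol desaturase, differed by -1.70 (SE 0.117, adjusted p = 2.68e-10) and the demethylase Cyp51 by -1.26 (SE 0.109, adjusted p = 7e-09). Dhcr7, which reduces the ring to give cholesterol, differed by -0.79 (SE 0.142, adjusted p = 6.42e-05). The enzymes of C4 demethylation were lower by less, Msmo1 at -0.48 (SE 0.119, adjusted p = 0.0013) and Nsdhl at -0.48 (SE 0.158, adjusted p = 0.0104). The regulators were lower too, with Insig1 at -0.67 (SE 0.117, adjusted p = 4.5e-05) and Srebf2 at -0.59 (SE 0.118, adjusted p = 0.000187). For 9 of the 15 sterol genes the call held under every alternative tried. For Dhcr7, Lss, Msmo1, Nsdhl, Mvk and Acat2 at least 1 alternative ended it; without Epcam+ Icam+ replicate 1, Nsdhl and Mvk were not called. In cells low in cell cycle UMIs Msmo1 differed by -0.15 and was not called.

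The fatty acid arm was split in macrophages, with 8 of 13 genes lower and 3 higher and a median of -0.47. The lower genes included those that build and desaturate the chain. Scd2, a stearoyl-CoA desaturase, stood at 45.4, 41.4 and 39.6 CPM against 173, 173 and 109 CPM in epithelium, or -1.57 (SE 0.077, adjusted p = 2.05e-12). Fasn, the synthase itself, stood at 17.5, 16.3 and 17.7 CPM against 52.7, 52.4 and 39.5 CPM, or -1.23 (SE 0.0894, adjusted p = 5.67e-10). Both were lower in macrophages of every library. Acaca, which makes malonyl-CoA, differed by -0.96 (SE 0.125, adjusted p = 1.64e-06) and Me1, the malic enzyme that supplies NADPH, by -1.62 (SE 0.138, adjusted p = 5.76e-09). Fads2, the delta-6 desaturase, differed by -2.06 (SE 0.182, adjusted p = 9.22e-09), although the gap was narrower in the Epcam+ library, where epithelium had less of it: 3.98, 3.67 and 3.65 CPM in macrophages and 23.6, 22.9 and 6.87 CPM in epithelium. Scd1 differed by -2.297 (SE 0.369, adjusted p = 1.96e-05) on only 5, 5 and 2 macrophage UMIs. Elovl5, an elongase of polyunsaturated chains, was lower at -0.47 (SE 0.104, adjusted p = 0.000577), as was Srebf1 at -0.38 (SE 0.114, adjusted p = 0.00634), whose call ended without Epcam+ Icam+ replicate 1 (-0.30).

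Elovl1, the elongase of very long saturated chains, went the other way from most of the arm. It stood at 40.5, 46.3 and 86.5 CPM in macrophages and 14.1, 14.8 and 26.9 CPM in epithelium, a log2 difference of 1.91 (SE 0.0879, adjusted p = 7.81e-13), higher in macrophages of all 3 libraries. Fads1, the delta-5 desaturase, was called higher at 0.65 (SE 0.12, adjusted p = 0.0001), but its levels of 22.1, 24.8 and 18.2 CPM in macrophages and 16.9, 17.1 and 24.7 CPM in epithelium show it above epithelium in the Epcam+ Icam+ libraries and below it in the Epcam+ library. Acly, which cleaves citrate to acetyl-CoA, was called higher at 0.26 (SE 0.0885, adjusted p = 0.0133), yet at 52.1, 52.4 and 34.9 CPM it lay under the 53.0, 53.2 and 40.8 CPM of epithelium, and with library totals the difference was -0.0872. Its direction therefore rests on the scaling. It was also not called when either Epcam+ Icam+ library was left out (0.21 and 0.17). Acss2, which activates acetate, and Elovl6, the elongase of C16 chains, were not called, with differences of -0.0303 (95% interval -0.60 to 0.54) and 0.17 (-0.56 to 0.90). The Elovl6 value depended on single libraries: it was 0.65 and called without the Epcam+ library, and -0.47 without Epcam+ Icam+ replicate 1.

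**Figure D2:**
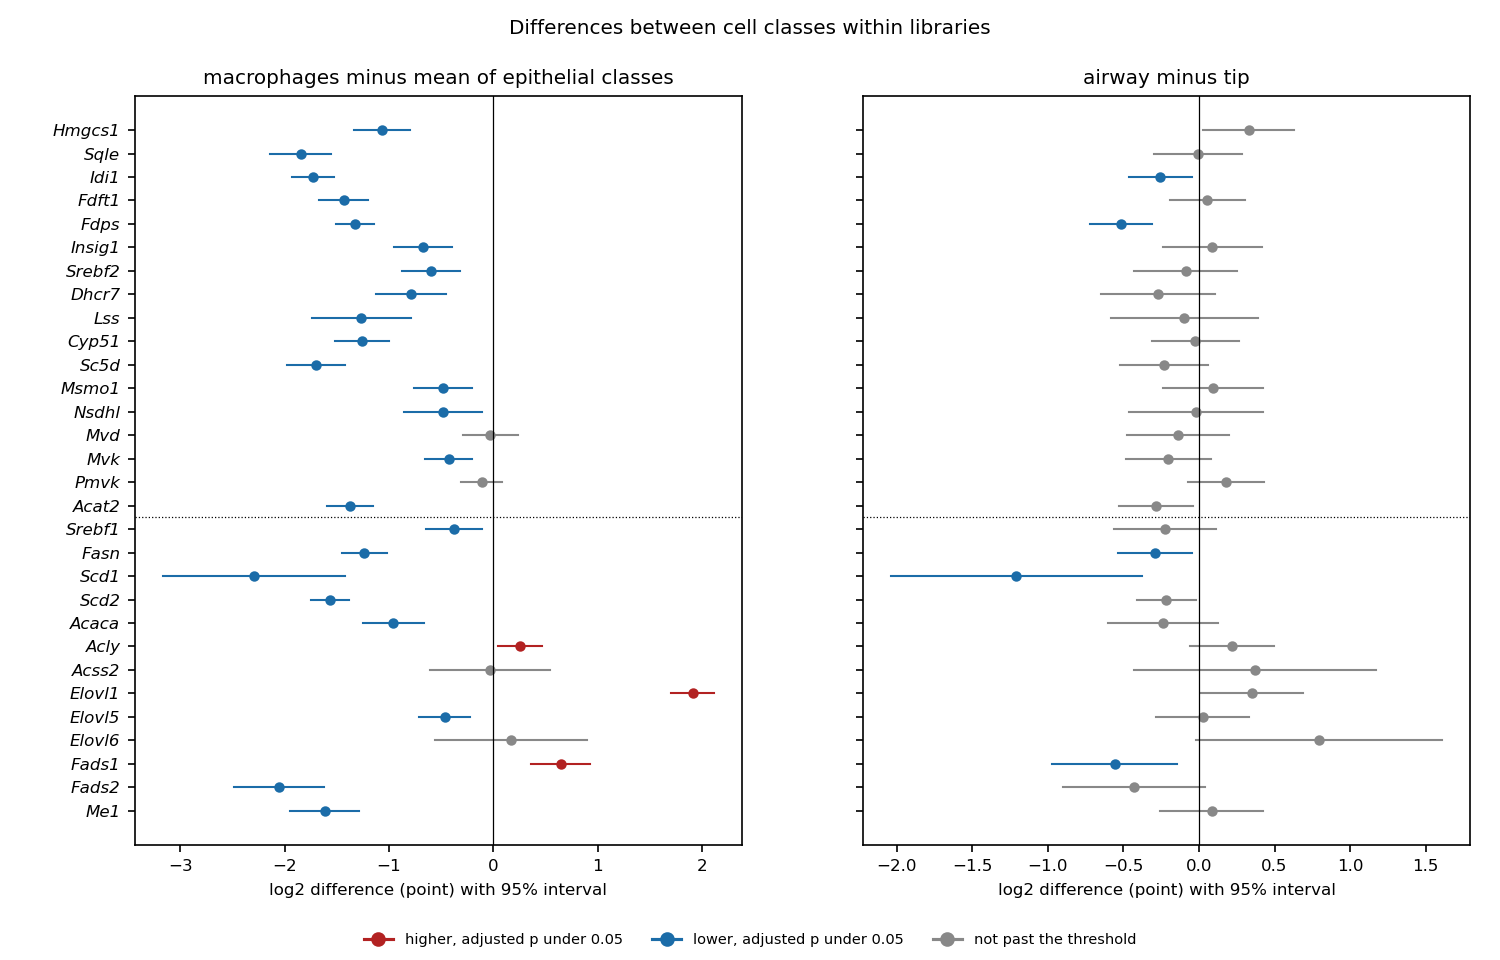
Log2 difference of each gene with its 95% interval for macrophages against the mean of the epithelial classes (left) and airway against tip (right), from counts summed per library and class, with the sterol arm above the dotted line. On the left 15 sterol genes lie below 0 as called and Elovl1 lies at 1.91; on the right 5 genes are called, all lower in airway.

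Set beside the epithelial markers, most members were retained in macrophages to a larger share. The 6 markers stood in macrophages at 12.3% to 15.8%, 11.6% to 16.03% and 21.4% to 31.1% of their epithelial level in the 3 libraries. The sterol genes stood at a median of 35.7%, 41.2% and 38.0% and the fatty acid genes at 60.5%, 59.0% and 53.1%. In the Epcam+ Icam+ libraries only Scd1 was at or under the highest marker share, and 0 sterol genes were. Fads2 stood barely above that share, at 16.8% and 16.05%. Its macrophage level there is hardly distinguished from the level of epithelial transcripts in those cells. In the Epcam+ library, where macrophages were few, Sqle, Fdft1, Cyp51, Sc5d, Scd1, Elovl6 and Me1 were at or under it, so their macrophage level there is not distinguished from the level of epithelial transcripts in those cells. Mvd (86.9, 90.4 and 57.3%) and Acly (98.4, 98.4 and 85.7%) kept a large share in each library, and Elovl1 reached 287, 313 and 322%.

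**Figure D3:**
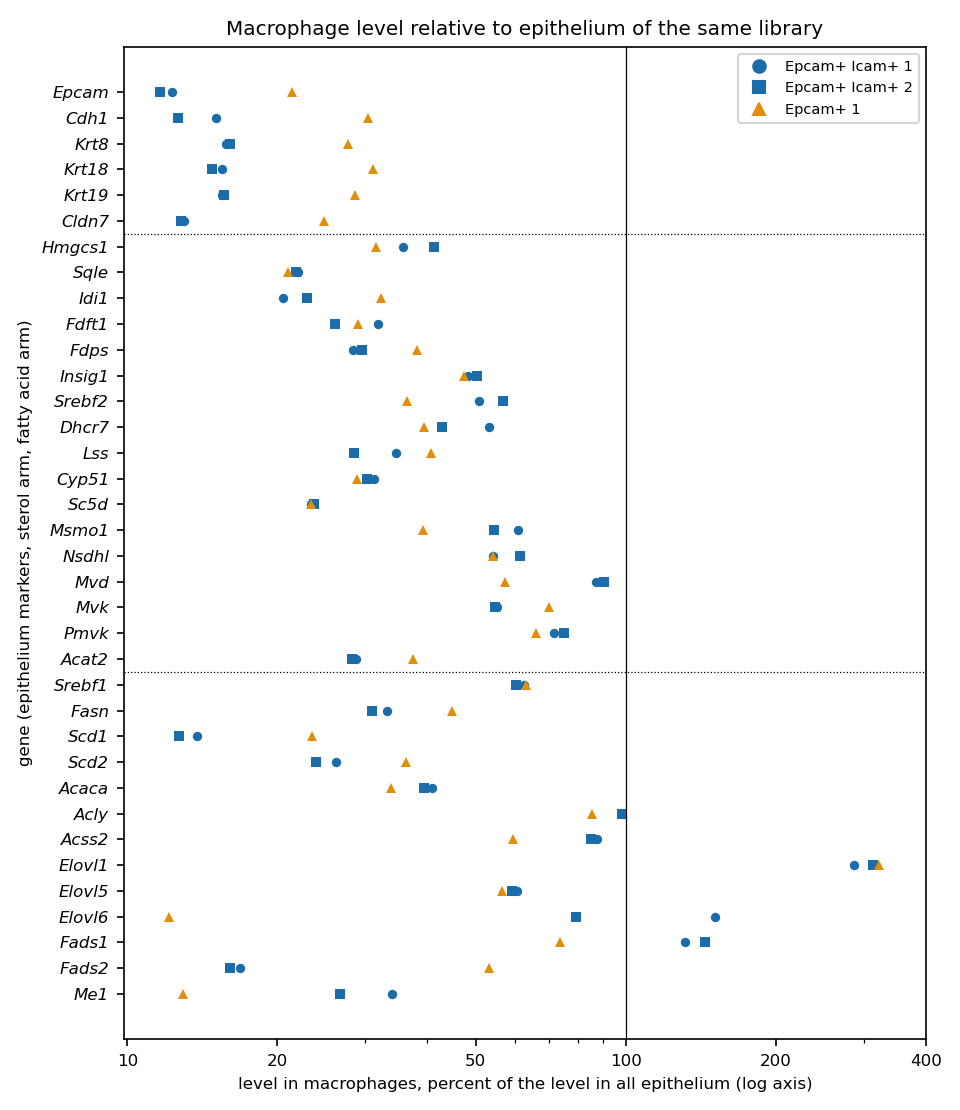
Level in macrophages as a percent of the level in all epithelium of the same library (log axis), for 6 epithelium markers at the top, 17 sterol genes in the middle and 13 fatty acid genes at the bottom, with 1 point per library. The markers lie between 11.6% and 31.1%, most members lie to the right of them, and Elovl1 lies above 100% in every library.

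For the sterol genes the highest of the epithelial classes of a library exceeded the lowest by at most 1.89-fold (Hmgcs1, Epcam+ Icam+ replicate 2). The fatty acid genes reached further, with Scd1 at 12.1-fold in Epcam+ Icam+ replicate 1, on 1 UMI in airway, 4.24-fold in replicate 2 and 2.20-fold in the Epcam+ library, and Elovl6 at 6.2-fold, 3.34-fold and 1.91-fold in the same libraries. Airway against tip gave the most calls among the epithelial comparisons: 2 of 17 sterol genes and 3 of 13 fatty acid genes, all lower in airway, where 13.3% of all genes were called lower and 11.8% higher (25.1% in all). The count of 5 of 30 is thus below the share over all genes. Fdps stood at 128, 150.1 and 188 CPM in tip and 102, 88.8 and 145 CPM in airway, lower in airway in each library, a log2 difference of -0.52 (SE 0.0864, adjusted p = 0.000263). Its call ended only in the fit without library as a block. Idi1 was lower by less, -0.25 (SE 0.0893, adjusted p = 0.0448), and lost its call under most alternatives, among them each omission of 1 library. Hmgcs1 stood higher in airway in each library, going from 47.1, 59.9 and 60.04 CPM in tip to 78.8, 76.0 and 67.3 CPM in airway, a difference of 0.33 (SE 0.127, adjusted p = 0.069). It passed with RLE scaling, with library totals (0.37), with gating on 3000 UMIs, with thinned counts (0.47) and without the Epcam+ library (0.53). RLE scaling and library totals also called Elovl1 higher in airway, so that under both the members called were 2 higher and 3 lower.

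Of the fatty acid genes, Scd1 had the largest difference between airway and tip. It stood at 3.81, 3.54 and 4.42 CPM in tip and 0.314, 0.991 and 2.94 CPM in airway, or -1.21 (SE 0.352, adjusted p = 0.0172), on 1, 3 and 17 airway UMIs. It was lower in airway in all 3 libraries, but the call ended when either Epcam+ Icam+ library was left out (-0.99 and -1.13), and without the Epcam+ library the difference was -2.45. Fads1, at 20.1, 20.6 and 27.3 CPM in tip and 14.1, 14.53 and 19.7 CPM in airway, differed by -0.56 (SE 0.174, adjusted p = 0.0253) and lost its call when any 1 library was left out. Fasn differed by -0.29 (SE 0.102, adjusted p = 0.0452). It was lower in airway in the Epcam+ Icam+ libraries (41.4 and 43.3 CPM against 56.5 and 61.9 CPM) and at 40.3 CPM against 39.3 CPM in the Epcam+ library. The call was lost without either Epcam+ Icam+ library and the difference was -0.47 without the Epcam+ library. Elovl6 was higher in airway in every library, at 9.42, 10.2 and 20.6 CPM against 2.77, 3.83 and 13.4 CPM in tip, but the difference of 0.79 (SE 0.345, adjusted p = 0.104) did not pass; without the Epcam+ library it was 1.56 and called. Airway cells had fewer cell cycle UMIs than tip cells, a median of 5.5, 5 and 12 against 14, 17.5 and 18 among 5000 UMIs; among cells low in cell cycle UMIs, Fdps alone of the 5 was called (-0.74), together with Scd2. The other 4 were as large or nearly so in those cells, Idi1 at -0.39, Fasn at -0.35, Fads1 at -0.69 and Scd1 at -1.18, with fewer cells behind each value.

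Surfactant-high cells were not told apart from tip cells by any member: 0 of 30 were called by edgeR and by DESeq2, where edgeR called 6 of 12803 genes (0.0469%, all higher). At an unadjusted p under 0.05, 4 sterol genes and 0 fatty acid genes passed. The sterol median was -0.16, with 15 of 17 below 0, and the fatty acid median 0.0479, against -0.0246 over all genes. Fasn stood at 55.2, 58.9 and 47.5 CPM in surfactant-high and 56.5, 61.9 and 39.3 CPM in tip cells, with a 95% interval of the log2 difference from -0.10 to 0.34. For Scd1 the interval ran from -0.20 to 1.08, and for Srebf1 from -0.19 to 0.44. At the median over members the interval reached 0.283 (sterol) and 0.335 (fatty acid) to each side of the value. These intervals are not adjusted, whereas the calls adjust over 12803 genes, so differences larger than these could also have been missed.

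Hopx/Clic5-positive cells differed from their neighbours in 1 member. Me1 stood at 11.5 and 11.9 CPM in these cells of the Epcam+ Icam+ libraries, against 21.1 and 19.2 CPM in tip and 20.2 and 19.5 CPM in surfactant-high cells. The values did not overlap. It differed by -0.79 (SE 0.165, adjusted p = 0.00653) from tip and was higher in surfactant-high than in Hopx/Clic5-positive cells by 0.83 (SE 0.157, adjusted p = 0.00202). Over all genes 4.3% were lower in Hopx/Clic5-positive than in tip cells (7.97% called in all), and 6.51% were higher and 5.62% lower in surfactant-high than in Hopx/Clic5-positive cells (12.1% in all). The single call among 30 members is thus below or near the background in each. No sterol gene was called by edgeR in either, with 1 and 2 at an unadjusted p under 0.05. Both calls ended when either Epcam+ Icam+ library was left out and only 1 library then held the class (-0.69 and -0.90 against tip). Without the Epcam+ library, 6 members were called between surfactant-high and Hopx/Clic5-positive cells: Me1, Srebf1 and Acat2 higher, and Pmvk, Hmgcs1 and Elovl5 lower. The share over all genes in that fit is not given here. The sterol medians were -0.13 against tip and -0.0526 for surfactant-high minus Hopx/Clic5-positive, and the fatty acid medians -0.0329 and 0.0666.

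Between the sorts the arms moved apart. A lower level of sterol genes in Epcam+ Icam+ epithelium was already known from these files when the list was drawn up, and what follows gives its extent by gene and class. In all epithelium 15 of 17 sterol genes were lower in the Epcam+ Icam+ libraries and 0 higher, and of the fatty acid genes 6 were higher and 6 lower, where 38.7% of 14867 genes were lower and 39.3% higher (78% in all). The medians were -0.71 for the sterol arm, 0.15 for the fatty acid arm and 0.0217 for all genes. These comparisons set 2 libraries against 1, and the sorts also differ in depth, gene table and the Cell Ranger release that the headers name (5.0.1 and 3.0.2), which cannot be told apart from the Icam1 gate. With library totals the median of all genes moved by 0.11 in epithelium and 0.10 in tip, and in epithelium 12 sterol genes were then lower and 2, Cyp51 and Srebf2, higher. More of the Epcam+ epithelium was tip (33.7% of epithelial cells against 5.07% and 6.55%), so each class was also compared on its own. Like-named classes were not alike across the sorts: in tip cells the summed tip markers were 718, 742 and 1250 CPM, alveolar type 1 markers 510.2, 465 and 172 CPM and erythroid markers 14.2, 6.78 and 306 CPM. Erythroid markers were 4.71, 199 and 46.0 CPM in airway, 4.22, 6.94 and 37.1 CPM in surfactant-high cells and 6.67, 17.6 and 55.8 CPM in macrophages, and of the 5 all had UMIs, except Alas2 in some classes and libraries. Their part in the sort differences was not tested.

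The tests between sorts have no spread for the Epcam+ arm, which is 1 library. Their p-values and standard errors rest on the distance between the Epcam+ Icam+ replicates and on spread shared across genes, and the calls below hold only under that assumption. With the 1 residual degree of freedom alone, the 95% interval of a sterol gene reached, at the median, 1.71 to each side in tip, 2.08 in airway, 1.83 in surfactant-high cells and 3.19 in macrophages. These intervals are wider than the median differences of -0.53, -0.64, -0.53 and -0.60.

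Within single classes the sterol genes stayed on the lower side. In tip cells 11 of 17 were lower and 0 higher (32.9% and 32.5% of all genes, 65.4% in all), in airway cells 9 and 0 (27.5% and 28.3%, 55.8% in all) and in surfactant-high cells 11 and 0 (28% and 29.9%, 57.9% in all). In macrophages 8 were lower and 1 higher (20.3% and 24.3%, 44.5% in all). Macrophages of the Epcam+ library held epithelial markers at 21.4% to 31.1% of the epithelial level, against 12.3% to 15.8% and 11.6% to 16.03% in the Epcam+ Icam+ libraries. In the Epcam+ macrophages Sqle, Fdft1, Cyp51 and Sc5d were at or under the highest marker share. The part of epithelial transcripts in the macrophage sort calls was not tested. 7 sterol genes were lower in each of the 4 classes: Sqle, Fdft1, Fdps, Dhcr7, Msmo1, Nsdhl and Acat2. The 4 comparisons draw on the same 3 libraries, so calls can repeat across classes for any gene. The share of all genes called the same way in all 4 is not given here. Dhcr7 stood in epithelium at 8.39, 9.26 and 25.1 CPM and in macrophages at 4.45, 3.96 and 9.90 CPM, the Epcam+ library standing apart above both others. Its log2 difference was -1.65 (SE 0.196, adjusted p = 4.66e-16) in tip and -1.18 (SE 0.39, adjusted p = 0.0145) in macrophages. Acat2 stood at 36.3, 35.4 and 89.1 CPM in epithelium and 10.4, 10.0 and 33.4 CPM in macrophages, with differences of -1.45 (SE 0.12, adjusted p = 7.71e-32) in tip and -1.65 (SE 0.211, adjusted p = 1.86e-07) in macrophages.

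The same split held for Nsdhl, whose epithelial level was 9.10, 8.43 and 21.1 CPM and whose difference ran from -1.50 in surfactant-high cells to -1.13 in macrophages (adjusted p = 4.79e-12 and 0.0103). Msmo1 stood at 21.7, 21.6 and 50.5 CPM in epithelium and differed by -1.41 (SE 0.144, adjusted p = 3.26e-21) in tip. Fdft1 at 32.2, 29.5 and 68.2 CPM differed by -1.38 (SE 0.144, adjusted p = 3.25e-20) in airway, Sqle at 28.5, 25.8 and 57.1 CPM by -1.30 (SE 0.14, adjusted p = 3.47e-19) in surfactant-high cells, and Fdps at 119, 118 and 179.5 CPM by -0.63 (SE 0.078, adjusted p = 4.82e-15) there. The Epcam+ Icam+ replicates lay close together for these genes and the Epcam+ library above them. Mvd, at 14.9, 15.7 and 32.7 CPM in epithelium, was lower in the 3 epithelial classes, with -1.22 (SE 0.221, adjusted p = 2.12e-07) in airway, and was not called in macrophages at -0.41. Lss was lower in tip (-0.63, adjusted p = 0.0433) and airway (-1.04, adjusted p = 0.00868).

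S phase genes also differed between the sorts: 11, 12, 12 and 11 of 14 were lower in the Epcam+ Icam+ libraries in tip, airway, surfactant-high cells and macrophages. In the same order 0, 0, 1 and 1 were higher, the gene being Pcna (0.21 in surfactant-high cells and 0.75 in macrophages). G2/M genes went both ways, with 6, 7, 4 and 8 of 14 lower and 6, 4, 6 and 2 higher. Cells low in cell cycle UMIs were cut at the median of each library, 9, 9 and 17 UMIs in epithelium and 4, 4 and 9 in macrophages. That setting therefore does not match the cell cycle between the sorts. In those cells the sterol genes called lower were 6, 10, 11 and 5, with 0, 0, 0 and 1 higher. Over all genes that setting called 1174 lower and 1182 higher of 8178 in tip, 2663 and 2592 of 10058 in airway, 2216 and 2218 of 9547 in surfactant-high cells and 2008 and 2416 of 11598 in macrophages. Acat2 then stood at -1.58, -1.32, -1.48 and -1.63. Sterol calls lost there were, in tip, Dhcr7 (-1.42), Mvd (-0.71), Sc5d (-0.36) and Hmgcs1 (-0.12), in airway Lss (-0.85), and in surfactant-high cells Sc5d (-0.51) and Pmvk (0.0284). In macrophages they were Idi1 (-0.78), Nsdhl (-0.77) and Dhcr7 (-0.63). A further tip call ended because its gene was not tested in that setting, where 16 of the 17 sterol genes passed the count filter.

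Other sterol genes were called in fewer classes. Insig1 and Cyp51 were called in none of the 4 classes, though Insig1 was called lower in all epithelium (-0.17), with levels there of 26.5, 24.3 and 26.5 CPM and 50.4, 51.0 and 46.8 CPM. Idi1 was called only in macrophages among the classes (-0.57, adjusted p = 0.0247), and Hmgcs1 only in tip (-0.26, adjusted p = 0.0448), where the value was -0.10 and -0.44 with either Epcam+ Icam+ library left out. Mvk and Pmvk were lower in surfactant-high cells (-0.53 and -0.26) and Sc5d in tip and surfactant-high cells (-0.31 and -0.45). Srebf2, the sterol activator, was not called in epithelium, at 40.1, 38.4 and 35.8 CPM. In macrophages it was called higher in the Epcam+ Icam+ libraries, at 20.4, 21.8 and 13.0 CPM and a difference of 0.75 (SE 0.251, adjusted p = 0.0157).

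The fatty acid genes took both directions. Fads2 had the largest rise: 23.6, 22.9 and 6.87 CPM in epithelium, with 1.48 (SE 0.206, adjusted p = 4.47e-12) in tip, 2.27 (SE 0.296, adjusted p = 2.75e-13) in airway and 1.89 (SE 0.253, adjusted p = 7.81e-13) in surfactant-high cells. Its neighbour on chromosome 19, Fads1 (chr19:10182888-10196877, mm10, against chr19:10062765-10101746 for Fads2), went the other way, at 16.9, 17.1 and 24.7 CPM in epithelium, and was called lower in tip (-0.52, SE 0.162, adjusted p = 0.00249) and surfactant-high cells (-0.40, adjusted p = 0.0419). Acaca was the member called higher in all 4 classes, at 20.0, 19.9 and 9.27 CPM in epithelium and 1.21 (SE 0.2, adjusted p = 6.52e-09) in tip. Scd2 was higher in the 3 epithelial classes, at 173, 173 and 109 CPM in epithelium and 0.74 (SE 0.0918, adjusted p = 8.82e-15) in tip, as was Me1 (0.57, 0.55 and 0.51). Acly was higher in tip (0.52), airway (0.40) and macrophages (0.64), and Fasn in tip alone of the classes (0.49, SE 0.124, adjusted p = 0.000163).

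The 2 elongases Elovl6 and Elovl1 were on the lower side. Elovl6 stood at 3.76, 4.97 and 12.9 CPM in epithelium and differed by -2.10 (SE 0.298, adjusted p = 1.15e-11) in tip, -1.10 (SE 0.246, adjusted p = 2.78e-05) in airway and -2.26 (SE 0.354, adjusted p = 1.01e-09) in surfactant-high cells. In macrophages the order was the other way, 5.66, 3.96 and 1.56 CPM on 84, 55 and 3 UMIs, and the difference of 1.67 (SE 0.698, adjusted p = 0.0518) was not called. Elovl1 was lower in all 4 classes, at 14.1, 14.8 and 26.9 CPM in epithelium and -0.94 (SE 0.134, adjusted p = 1.18e-06) in macrophages. Srebf1, Scd1, Acss2 and Elovl5 were called in none of the classes in which they were tested; Scd1 was under the count filter in airway and macrophages and Acss2 in tip. In epithelium as a whole, with more cells behind each value, Srebf1 (-0.44), Scd1 (-0.87) and Elovl5 (-0.20) were called lower and Acss2 was not (0.15).

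**Figure D4:**
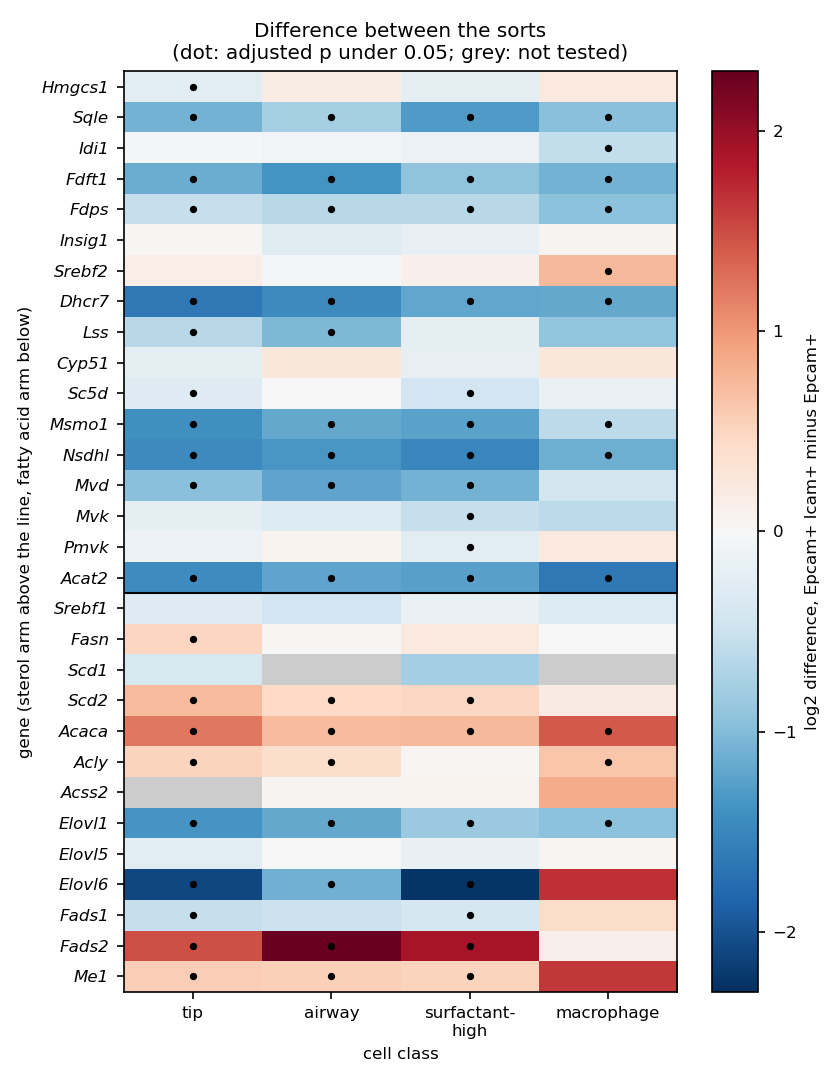
Log2 difference between the sorts (Epcam+ Icam+ minus Epcam+, color) for each gene in 4 cell classes, with a dot where the adjusted p was under 0.05 and grey where the gene was not tested. The sterol rows of Sqle, Fdft1, Fdps, Dhcr7, Msmo1, Nsdhl and Acat2 are blue with a dot in all 4 columns, and among fatty acid genes the Fads2 row is red and the Elovl6 row blue in the epithelial columns.

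How far these calls hold depended on the class. Of the 15 sterol calls in all epithelium 12 held under every alternative that gave the gene a value, but in airway cells 2 of 9 did and in macrophages 2 of 9. With each cell thinned to 5000 UMIs, the members called fell from 16 to 2 in airway and from 12 to 2 in macrophages, where Dhcr7 turned to 0.93. Calls over all genes fell too. In airway they went from 3121 higher and 3029 lower of 11012 to 643 and 512 of 8011. In macrophages they went from 3102 and 2590 of 12789 to 1126 and 782 of 9952. DESeq2 called 8 and 3 members, and over all genes 1237 higher and 1021 lower in airway and 1740 and 1552 in macrophages. Leaving out an Epcam+ Icam+ library leaves 1 library against 1, which gives values with no test; it turned no called difference, but without Epcam+ Icam+ replicate 2 Lss in airway was -0.63, Sc5d in tip -0.16 and Insig1 in epithelium -0.10.

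Whether the sort difference itself differed between classes was tested against tip. For airway 0 of 30 members were called by edgeR or DESeq2 (edgeR called 1.1% of 13150 genes) and for surfactant-high 0 of 30 (0.0228%), with 7 and 2 members at an unadjusted p under 0.05 in edgeR. For macrophages 3 members differed, where 6.85% of all genes were called higher and 1.86% lower (8.71% in all) and the median of all genes was 0.20: Msmo1, Elovl6 and Fads1, each with a higher sort difference in macrophages than in tip. The balance over all genes turned with the scaling, from 901 higher and 244 lower to 236 and 440 with library totals, under which Elovl6 was called higher and Scd2 lower (-0.71). The Epcam+ arm of this test is 1 library too. DESeq2 called 0 of them. A gene called between sorts in 1 class and not in another is otherwise not shown to differ between the classes.

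Genes around the 2 arms were read from lists of the wider pathway. Beside the counts that follow stand the shares over all genes between macrophages and epithelium, 39.2% higher and 37.5% lower (76.7% in all). Of 7 genes of LXR signalling and cholesterol efflux 4 were tested, and all 4 were higher in macrophages. The count filter took in the macrophage sums, so a gene seen mainly in macrophages could be tested through the class where it is high. The count of 4 can thus in part be set by the filter. Among the 4 was the LXR receptor Nr1h2 (0.68, SE 0.0893, adjusted p = 1.73e-06). Abca1, the efflux pump, stood at 248, 248 and 51.6 CPM against 2.70, 3.06 and 0.669 CPM, or 6.74 (SE 0.128, adjusted p = 1.65e-18). Of 11 genes of SREBP processing and sterol transport 6 were higher and 2 lower, a share near that of all genes; Soat1, which esterifies cholesterol, differed by 2.09 (SE 0.0952, adjusted p = 6.92e-13), and Stard4, a sterol carrier, by -1.19 (SE 0.139, adjusted p = 3.71e-07). Of 15 genes of phospholipid synthesis and lipid storage 10 were higher and 3 lower, with the largest difference for the lipid droplet protein Plin2 at 531, 515 and 546 CPM against 30.6, 27.0 and 29.6 CPM (4.53, SE 0.0715, adjusted p = 1.21e-19). The further sterol enzymes were divided, 2 of 7 tested higher and 3 lower: Ebp, a sterol isomerase, was higher at 2.00 (SE 0.0868, adjusted p = 3.31e-13). Ebp thus moved against most sterol members, at 64.5, 64.9 and 70.9 CPM in macrophages and 19.9, 20.2 and 26.2 CPM in epithelium.

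Among the epithelial classes, Lpcat1, which remodels the phosphatidylcholine of surfactant, differed by more than any of the 30 genes both between airway and tip and between surfactant-high and Hopx/Clic5-positive cells. It stood at 83.8, 79.3 and 50.6 CPM in tip, 103, 85.4 and 57.7 CPM in surfactant-high and 27.6, 24.8 and 28.03 CPM in airway cells, with 39.0 and 37.1 CPM in Hopx/Clic5-positive cells of the Epcam+ Icam+ libraries. The differences were -1.34 (SE 0.14, adjusted p = 1.85e-06) for airway against tip and 1.28 (SE 0.137, adjusted p = 1.07e-05) for surfactant-high against Hopx/Clic5-positive. Its list of 15 genes of phospholipid synthesis and lipid storage did not rise with it in surfactant-high cells, with 1 higher and 2 lower. The lower genes were Pcyt1a (-0.58, SE 0.128, adjusted p = 0.00639) and Chpt1 (-0.42, SE 0.0975, adjusted p = 0.00929). Of the 16 tested genes of other fatty acid synthesis, 6 were higher and 0 lower in surfactant-high than in Hopx/Clic5-positive cells, where 6.51% of all genes were higher and 5.62% lower. Among them were Hacd1, a dehydratase of chain elongation, at 0.55 (SE 0.126, adjusted p = 0.00807) and Acsl5, an acyl-CoA synthetase, at 0.53 (SE 0.127, adjusted p = 0.0109). Between the sorts, Tecr, the reductase that ends each elongation cycle, was lower in Epcam+ Icam+ epithelium (-1.07, SE 0.0304, adjusted p = 2.37e-12), and the acyl-CoA synthetase Acsl4 higher (1.30, SE 0.0622, adjusted p = 3.27e-10). Of the 8 further sterol enzymes 4 were lower and 3 higher there, near the 38.7% and 39.3% of all genes, with Lbr, a sterol reductase of the nuclear envelope, higher at 0.43 (SE 0.0374, adjusted p = 1.7e-07).

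Some members share sequence with other genes, and their counts are uncertain to that extent. Fdps shares 1124 exonic bases on the same strand with Gm43738, which is in the Epcam+ gene table alone and had 7 UMIs there. Members that overlap exons of a gene on the opposite strand are Hmgcs1, Idi1, Fdft1 (774 bases of Ctsb), Lss, Cyp51, Srebf1, Acss2, Elovl1 (53 bases of Cdc20), Elovl6 and Me1, and whether the counting used strand is not given in the sources used here. Runs of 60 bases near the 3' end are shared by Acat2 with Acat3, by Scd1 with Scd2, Scd3 and Scd4, by Srebf2 with Epb41l5, and by Acaca and Dhcr7 with several other genes. Fdft1, Fdps, Idi1, Insig1, Me1 and Elovl6 share such runs with pseudogenes that are in neither gene table.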

How the data were processed

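The 30 genes and the other lists were chosen with earlier results of these data known. The deposited values are raw UMI counts for each barcode and gene. The headers name Cell Ranger 5.0.1 for Epcam+ Icam+ and 3.0.2 for Epcam+, whereas the submitters' processing notes name Cell Ranger 2.1.1 and mm10. No source used here gives the annotation release or the cell calling. Tables of 32285 and 31053 genes were joined by Ensembl ID. Barcodes with at least 1000 UMIs, 500 genes and at most 10% mitochondrial UMIs were kept. Cells were thinned to 5000 UMIs for gating only, which left 408, 451 and 253 shallower cells out. A cell was epithelial or a macrophage where at least 80% of its lineage marker UMIs (minimum 5) were of that type, and took the epithelial class whose marker score was at least 0.25 and led the next by 0.25. No doublet caller was run. The 80% gate leaves out barcodes in which no type reaches 80% of the lineage marker UMIs. Barcodes with a smaller part of a second lineage can pass it, doublets of macrophage and epithelium among them. Doublets within a class also remain. Free RNA was not removed.

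Counts were summed per library and class (at least 20 cells) and fitted in edgeR 4.0.16 (R 4.3.3) with TMM scaling and filterByExpr, by quasi-likelihood F tests with Benjamini-Hochberg adjustment over all genes at 0.05. The class fit had library as a block (14 sums, 7 residual degrees of freedom, biological coefficient of variation 6.90%). Sort fits compared 2 libraries with 1 (1 residual degree of freedom), and the class by sort fit had 3. Standard errors were taken as the log2 difference over the root of F. The 95% intervals use the residual degrees of freedom alone, whereas the p-values also use spread shared across genes. The fits were tested on simulated data. Named genes were all members and, of each other list and comparison, at most the 2 largest called differences in each direction with a mean of at least 20 CPM. Alternatives were RLE scaling, no count filter, DESeq2 1.42.0, other class margins, scores and gates, thinned counts, cells low in cell cycle UMIs, at most 5% mitochondrial UMIs, no library block and each library left out; library totals and omission of the 5% deepest cells were added after seeing the data.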

Additional observations from a re-analysis of the deposited data

Results flagged for a closer look

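3 members had a sort difference (Epcam+ Icam+ minus Epcam+) that differed between macrophages and tip cells by the edgeR test of that difference, out of 30 members and 3 such class comparisons. Over all 13150 genes 8.71% were called between macrophages and tip (6.85% higher and 1.86% lower), so the count of members is near that share. For Elovl6 the difference of the log2 differences was 3.85 (SE 0.708, adjusted p = 0.000353): the level was lower in the Epcam+ Icam+ libraries in tip (2.77, 3.83 and 13.4 CPM) and higher in macrophages (5.66, 3.96 and 1.56 CPM), where the Epcam+ value rests on 3 UMIs. The Epcam+ arm is 1 library, so the test takes its spread from the Epcam+ Icam+ replicates. For Fads1 it was 1.03 (SE 0.272, adjusted p = 0.0124), with 20.1, 20.6 and 27.3 CPM in tip and 22.1, 24.8 and 18.2 CPM in macrophages. For Msmo1 it was 0.88 (SE 0.287, adjusted p = 0.0496), with 17.7, 23.3 and 51.0 CPM in tip and 13.2, 11.7 and 19.8 CPM in macrophages, so it was lower in the Epcam+ Icam+ libraries in both classes and by less in macrophages. The median over all genes of this comparison was 0.20 with TMM scaling and -0.0498 with library totals, under which Msmo1 (0.63) and Fads1 (0.78) were no longer called, while the calls over all genes turned from 901 higher and 244 lower to 236 and 440. DESeq2 called none of the 3. The Epcam+ library held 65 macrophages, and the summed epithelial markers in them were 791 CPM against 609 and 584 CPM in the Epcam+ Icam+ libraries; the part of these transcripts in the differences was not tested.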

How the results depend on the processing

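Of 129 called member differences, 64 were neither lost nor turned under any alternative that gave them a value, and 6 turned under at least 1. Sort fits without an Epcam+ Icam+ library have no test, so they could show a change of direction alone. Genes under the count filter of an alternative were passed over there. The fits with no library block, with plain UMI gates and without the Epcam+ library covered class comparisons only. The macrophage difference from epithelium kept its count (26) within 1.5 times under each alternative, from 22 to 27 with 1 library left out. For airway against tip (5 called), DESeq2 and thinned counts each called 3, cells low in cell cycle UMIs 2, the fit with no replicate block 0, and fits without 1 library 1 to 6. For Hopx/Clic5-positive against tip (1 called), thinned counts, no replicate block and plain UMI gates each gave 0, cells low in cell cycle UMIs 2, and fits without 1 library 0 to 2. For surfactant-high against Hopx/Clic5-positive (1 called), gating on 3000 UMIs and library totals each gave 2, cells low in cell cycle UMIs and no replicate block 0, plain gates 4, and fits without 1 library 0 to 6. Between the sorts, DESeq2 called 13, 8, 11 and 3 members in tip, airway, surfactant-high cells and macrophages, against 20, 16, 18 and 12. Thinned counts called 12, 2, 11 and 2, and cells low in cell cycle UMIs 10 in tip. Calls over all genes fell too, as given above for airway and macrophages. In tip they went from 3515 higher and 3557 lower of 10817 to 1980 and 1737 with DESeq2. Tip had 1782 and 1785 of 7236 with thinned counts and 1182 and 1174 of 8178 in low-cycle cells. In surfactant-high cells they went from 3441 and 3222 of 11498 to 1554 and 1473 with DESeq2 and 1461 and 1303 of 8592 with thinned counts. For the class by sort difference, the fit without a count filter called 2 for airway (0 before) and 5 for macrophages (3 before), DESeq2 0, and thinned or low-cycle cells 1 each for macrophages. The cause of these changes was not tested; thinning leaves fewer counts and the low-cycle setting fewer cells. Turned values were Acly in macrophages against epithelium with library totals (-0.0872), and between the sorts Pmvk in epithelium with library totals (0.0105), Cyp51 in epithelium in low-cycle cells (-0.22, called there and not before), Pmvk in surfactant-high cells with a margin of 0.5, thinned counts and low-cycle cells (0.0332, 0.0366 and 0.0284), and Idi1, Dhcr7 and Msmo1 in macrophages with thinned counts (0.20, 0.93 and 0.0362). No paired analysis was possible because, between the sorts, only the Epcam+ Icam+ libraries carry replicate numbers in the labels; the class comparisons were fitted with library as a block. Depth limits Scd1, Acss2, Lss and, in the Epcam+ macrophages, Elovl6 and Me1, which rest on few UMIs.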
